A study of Homo sapiens with 6 samples.

Results

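Chromosome 14 was followed gene by gene, from its first expressed gene to its last, in parental H526 cells and in H526 cells grown resistant to onvansertib. All genes placed on chromosome 14 of GRCh38 whose normalized value averaged at least 10 across the 6 libraries were taken as members, which gave 555 of the 2341 chromosome 14 rows and 555 of the 16347 genes that passed this minimum in the whole series. The chromosome was selected on these same measurements, since its genes were known to be higher in resistant cells, so its fold changes, its blocks and the distances from them are given as a description with no test. Members were grouped by start position into consecutive blocks of 10 Mb, named A to J from the centromere towards the end of the long arm.

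H526 is an established human small cell lung cancer line, and onvansertib is an inhibitor of polo-like kinase 1 (PLK1), a kinase that drives mitosis. Parental cells carry the library numbers 1 to 3 and were not selected with the drug. Resistant cells carry the numbers 7 to 9, and their onvansertib concentration had been raised from 10 to 75 nM stepwise over at least a year. The resistant libraries come from 1 selected line, and RNA was extracted at 3 separate times per group, so the spread between libraries measures this line and its handling and may be technical.

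Human chromosome 14 carries ribosomal RNA repeats on its short arm and its protein-coding genes on the long arm. Its genes serve unrelated functions and include the heat shock protein 90 gene *HSP90AA1*, the dynein heavy chain gene *DYNC1H1*, *AKT1*, the lung and thyroid factor *NKX2-1* and the granule protein gene *CHGA*. Neighbouring genes on a chromosome can move together when a whole stretch is gained or lost, or can be set one by one by their own promoters. DNA was not measured here, so the number of gene copies and the RNA made per copy cannot be told apart, nor can less RNA per cell and fewer cells of a kind.

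Estimated depth was higher in every parental library than in any resistant one. From the step between low values, the libraries held about 25708710 to 28512571 reads in parental and 22376000 to 23265065 in resistant cells. A value worth 3 reads, used as the limit of detection, averaged 2.83 in parental libraries and 3.16 in resistant ones and covers counting error only. *POU2F3*, the defining factor of the tuft-like small cell subtype, lay between 24511 and 27873 in every library. *NEUROD1*, a factor of another subtype, did not exceed 5.49. Among the other tuft-like markers listed, *AVIL* ran from 20123 to 21748 in parental and from 11741 to 12266 in resistant libraries. *ASCL2* was also lower in every resistant library, whereas *GFI1B*, *TRPM5* and *SOX9* were higher.

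Upstream sequences are shown for 4 members that lay far from their block and had a single RefSeq start: *RHOJ* and *PLD4*, which lay above it, and *CHGA* and *GPX2*, which lay below it. Each is the 250 bases before the transcription start in RefSeq on GRCh38.p14, written 5′ to 3′ on the strand of the gene. Gencode, whose gene positions are used below, starts *RHOJ* at 63204114 and *PLD4* at 104924713. By those starts all of the *RHOJ* stretch and part of the *PLD4* stretch lie inside the gene. Capitals mark 4 promoter motifs searched on both strands, which are the GC box with the letters GGGCGG, the CCAAT box spelled as its name, the TATA box as TATAAA and the cAMP response element as TGACGTCA. None of them overlaps another in the printed stretches.
RHOJ: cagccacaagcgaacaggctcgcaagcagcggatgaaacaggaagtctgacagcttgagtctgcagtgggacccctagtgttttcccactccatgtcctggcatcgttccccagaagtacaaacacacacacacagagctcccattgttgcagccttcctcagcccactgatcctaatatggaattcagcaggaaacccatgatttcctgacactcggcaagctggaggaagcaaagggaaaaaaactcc
PLD4: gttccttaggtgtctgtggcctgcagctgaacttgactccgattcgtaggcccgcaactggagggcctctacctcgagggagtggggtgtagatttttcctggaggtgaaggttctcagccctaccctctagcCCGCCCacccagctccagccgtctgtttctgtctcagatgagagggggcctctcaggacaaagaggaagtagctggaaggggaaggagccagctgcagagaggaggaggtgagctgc
CHGA: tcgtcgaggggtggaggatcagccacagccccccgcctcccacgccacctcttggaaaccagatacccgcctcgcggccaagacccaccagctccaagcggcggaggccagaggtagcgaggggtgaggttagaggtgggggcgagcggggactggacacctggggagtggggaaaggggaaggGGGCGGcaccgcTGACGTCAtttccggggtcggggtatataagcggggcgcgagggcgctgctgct
GPX2: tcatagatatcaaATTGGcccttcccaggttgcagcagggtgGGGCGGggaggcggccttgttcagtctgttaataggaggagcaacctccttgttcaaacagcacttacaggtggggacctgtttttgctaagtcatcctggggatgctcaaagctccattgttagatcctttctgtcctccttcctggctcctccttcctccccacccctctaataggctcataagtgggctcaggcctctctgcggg

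The *RHOJ* stretch (chr14:63204193-63204442, plus strand) held none of the 4 motifs, with 52% G and C and 5 CpG. The *PLD4* stretch (chr14:104924629-104924878, plus strand) held 1 GC box, which begins 117 bases before the start, with 59.2% G and C and 6 CpG. The *CHGA* stretch (chr14:92922900-92923149, plus strand) held a GC box 66 bases and a cAMP response element 54 bases before the start, with 68.8% G and C and 21 CpG. The *GPX2* stretch (chr14:64942746-64942995, minus strand) held a CCAAT box 237 bases and a GC box 208 bases before the start, with 54% G and C and 3 CpG.

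These motifs are common in the human genome, and a match is a description of letters only. Over all 35116 RefSeq promoters the GC box was present in 42.6%, the CCAAT box in 32.0%, the TATA box in 10.7% and the cAMP response element in 1.65%. Over the 603 promoters of the 419 members matched by symbol the shares were 63.2%, 33.8%, 6.14% and 2.49%, and the median G and C content was 63.6% against 58.0% over all promoters. The members are expressed genes, whereas all promoters include those of genes that are not.

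Genes of chromosome 14 were higher in resistant cells along the whole length that could be read. The median log2 fold change of the 555 members, resistant minus parental on the log2(value + 1) scale, was 0.38, which is 1.298-fold, with the middle of the members between 0.15 and 0.64. Of the members, 460 (82.9%) had a fold change above 0. Over all 16347 genes tested the median was -0.000858 and 49.9% were above 0.

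The shift was also described library by library. The median deviation of the members from their own mean over the 6 libraries was -0.18, -0.19 and -0.19 in parental libraries 1, 2 and 3 and 0.19, 0.18 and 0.19 in resistant libraries 7, 8 and 9. The groups did not overlap, but the deviations are taken from a mean over both groups, so these library medians depend on each other. Chromosome 14 took 3.05%, 2.96% and 2.98% of the summed values in parental libraries 1, 2 and 3 and 3.92%, 3.96% and 3.85% in resistant libraries 7, 8 and 9. Without *HSP90AA1*, the member with the highest value, the shares ran from 2.75% to 2.79% in parental and from 3.55% to 3.65% in resistant libraries.

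By limma with Benjamini-Hochberg adjustment over all genes tested, 295 members (53.1%) were called higher in resistant cells and 20 (3.60%) were called lower, where a call is an adjusted p below 0.05. Of the whole set of genes 37.7% were called, 17.8% higher and 19.8% lower. Parental and resistant values were fully separate in 371 members (66.8%), 338 of them with the resistant libraries above and 33 with them below, and in 49.9% of all genes tested. Because the chromosome was chosen on this contrast, nothing is read from the difference between these shares. The median SD between libraries of a group was 0.14 for the members and 0.15 for all genes tested, on the log2 scale.

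**Figure D1:**
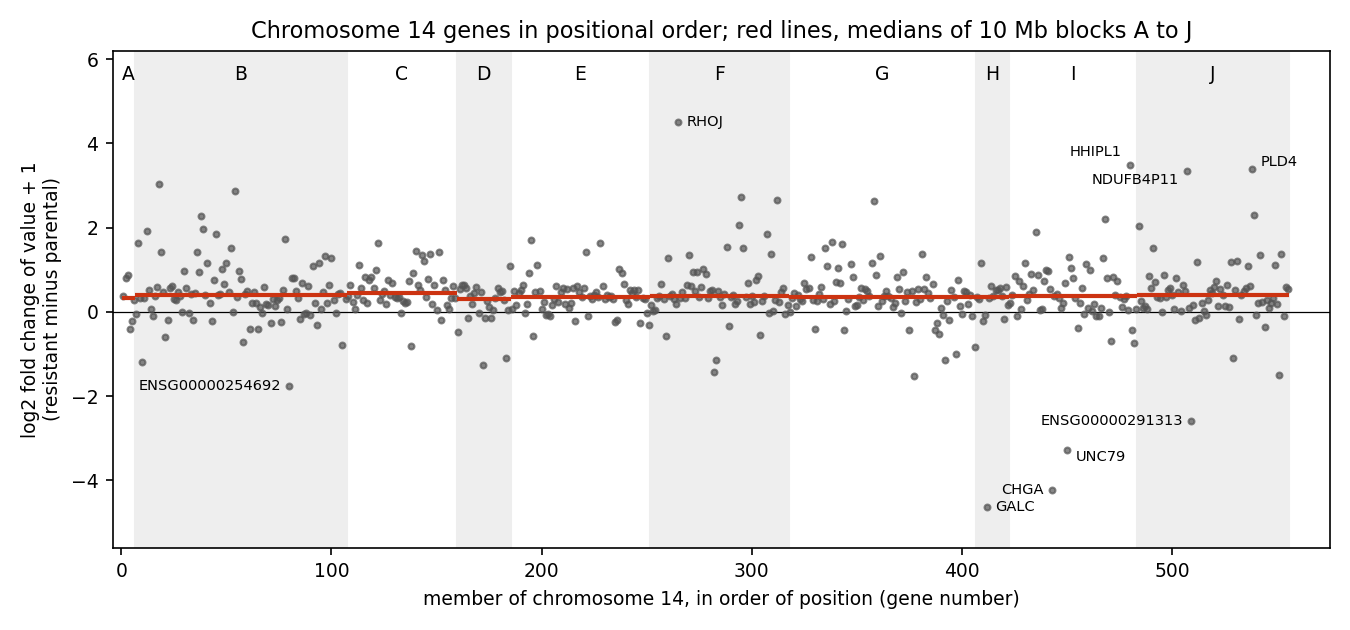
Log2 fold change of value + 1 (resistant minus parental, vertical axis) of the members in order of position (horizontal axis, gene number), of which 1 is not drawn. Each point is 1 gene, shading separates the blocks A to J, red lines are medians over all members of a block, and members farthest from their block are named. The red lines lie above 0 in all 10 blocks while the genes drawn reach from -4.63 to 4.51.

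In the 9 blocks with at least 10 members the median ran from 0.32 in block D (40 to 50 Mb, 26 members) to 0.46 in block C (30 to 40 Mb, 52 members), a range of 0.14. With the blocks shifted by 5 Mb it ran from 0.23 to 0.53. Block B (20 to 30 Mb, 101 members) had a median of 0.39, block E (50 to 60 Mb, 66 members) 0.36, block F (60 to 70 Mb, 66 members) 0.37 and block G (70 to 80 Mb, 89 members) 0.37. Block H (80 to 90 Mb, 16 members) had a median of 0.36, block I (90 to 100 Mb, 61 members) 0.37 and block J (100 to 110 Mb, 72 members) 0.41. The values fall in no order along the arm.

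Block D, which had the lowest median, varied with the setting. It is poor in genes, 7 of its 26 members were called higher and 2 lower, and its median dropped to 0.15 with a minimum mean of 50 and to 0.15 without parental library 3. Block H varied too, and its mean in place of the median was 0.050. Block C had the highest share of members above 0, with 94.2%, and 37 of its 52 members were called higher and 0 lower. Block A (10 to 20 Mb) held 6 members, none of them protein-coding and among them the *DUXAP9* and *DUXAP10* pseudogenes, of which 4 were above 0 and 1 was called higher. Its library medians overlapped between groups, from -0.18 to 0.12 in parental and from 0.08 to 0.30 in resistant libraries.

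In blocks B to J the library medians of the 2 groups did not overlap. The closest pair was in block D, where the parental libraries reached 0.02 and the resistant libraries began at 0.07. In block F, by contrast, the parental libraries lay from -0.23 to -0.17 and the resistant ones from 0.18 to 0.20.

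**Figure D2:**
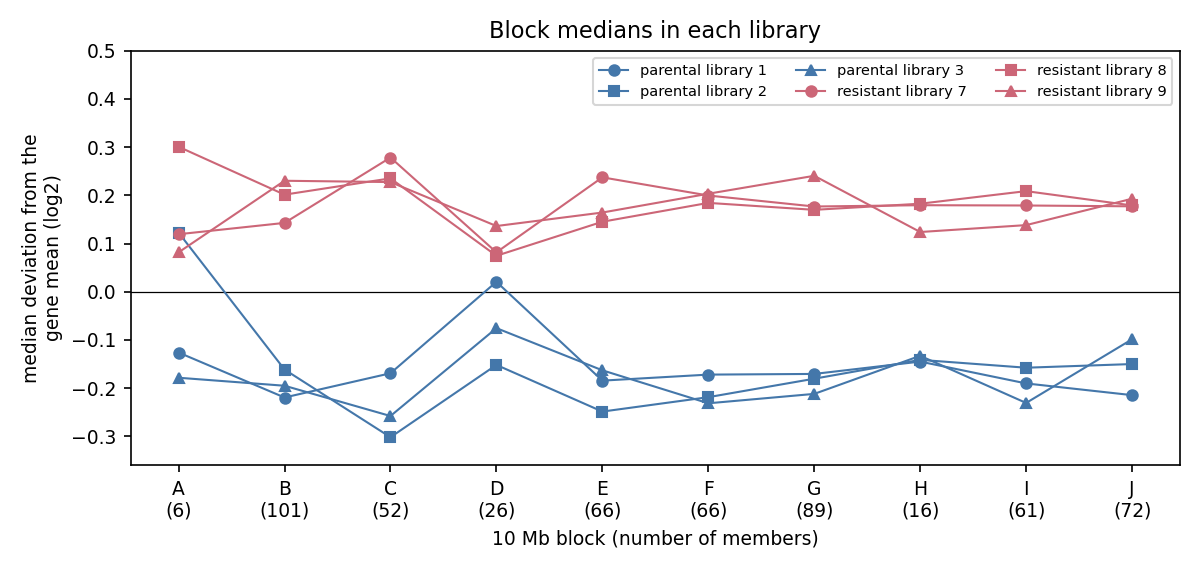
Median deviation of the members of a block from their gene mean over the 6 libraries (vertical axis, log2) in each 10 Mb block (horizontal axis, with the number of members). Each line is 1 library, blue for parental and red for resistant, and the lines of the 2 groups are apart in blocks B to J and overlap in block A.

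Other chromosomes moved by other amounts and with other profiles. Chromosome 13 had a median of 0.20 over 309 genes, with block medians from 0.11 to 0.28. Chromosome 15 had a median of 0.29 over 596 genes, but its block medians ran from -0.58 to 0.49, a range of 1.07 against 0.14 on chromosome 14. Chromosome 12 had a median of -0.34 over 835 genes and chromosome 21 of 1.00 over 199 genes, with ranges of block medians of 0.97 and 1.11. Differences between chromosomes were not tested.

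Most members lay near the median of their block. Of the 555, 404 (72.8%) were within 0.5 of it on the log2 scale, 36 lay more than 1 above and 21 more than 1 below. The distances were wider where values were low. With the members cut into 3 sets of 185 by their mean, the interquartile range of the fold changes was 1.04 in the lowest set (means of 10.1 to 190), 0.45 in the middle set and 0.31 in the highest set (above 1189). Of the members more than 1 from their block, 43 were in the lowest, 13 in the middle and 1 in the highest set.

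By gene type, strand and overlap the median stayed above 0. It was 0.36 in 463 protein-coding genes, 0.70 in 70 long noncoding RNAs and 0.31 in 22 members of other types. It was 0.36 on the plus and 0.39 on the minus strand, and 0.38 in the 113 members that overlap no other annotated gene. In the highest set by mean 91.4% of members were above 0, against 76.2% in the lowest set.

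Of the genes farthest above their block, *RHOJ*, *HHIPL1* and *NDUFB4P11* had values under 15 in every parental library. Their parental means of 4.58, 1.41 and 3.97 were under the minimum, so they passed it only through the resistant libraries. They were also named for their distance. A difference between the groups was thus built in by selection, and their separation is a description only. *RHOJ* (ENSG00000126785, chr14:63204114-63293508, plus strand, block F), a small GTPase known from endothelial cells, had values of 12.97, 0.778 and 0 in parental and of 67.5, 43.4 and 96.1 in resistant libraries. The groups did not overlap, although parental library 1 stood above the other parental libraries. The distance was 4.14, with neighbours *SYT16* at 0.18 and *PPP2R5E* at 0.32 (log2 fold change). Its printed stretch, which lies before the RefSeq start but inside the Gencode gene, was the one with no motif.

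*HHIPL1* (ENSG00000182218, chr14:99645129-99680569, plus strand, block I) was listed at 0 in parental libraries 1 and 3 and had 4.22 in library 2, against 17.2, 26.2 and 14.1 in resistant libraries. The groups did not overlap, but *HHIPL1* passed the minimum only through the resistant libraries, so nothing is read from this separation. The values lie close to the minimum, and with a pseudocount of 10 the distance of 3.13 became 0.99. *NDUFB4P11* (ENSG00000259374, chr14:103139675-103141959, plus strand, block J), a pseudogene of a complex I subunit whose reads may be shared with near-identical copies, had 5.79, 5.99 and 0.140 in parental and 35.4, 32.0 and 45.8 in resistant libraries, a distance of 2.93.

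*PLD4* (ENSG00000166428, chr14:104924713-104937761, plus strand, block J), an exonuclease of the phospholipase D family, was the best expressed of these. Its values were 43.7, 112 and 54.2 in parental and 645, 631 and 798 in resistant libraries, with no overlap and a distance of 2.99. It overlaps the end of *AHNAK2*, a large scaffold protein gene on the other strand, which itself lay 1.89 above the block, with 122, 315 and 263 in parental and 1008, 1299 and 926 in resistant libraries. The library kit is not stated to keep the strand, so reads of the shared stretch cannot be told apart.

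The genes farthest below their block included *CHGA*, a neuroendocrine marker, and *UNC79*, a neuronal gene. *GALC* (ENSG00000054983, chr14:87837820-87993665, minus strand, block H), the lysosomal galactosylceramidase, had values of 29.9, 28.5 and 25.3 in parental and of 0.570, 0 and 0 in resistant libraries. All resistant values were under the limit of 3 reads, so *GALC* was at least 8.81-fold lower. *GALC* passed the minimum only through the parental libraries, so a difference between the groups was built in by its selection. Its distance was -4.997, while the expressed genes on its sides, *SEL1L* and *SPATA7*, had fold changes of -0.08 and 0.33 (log2).

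*CHGA* (ENSG00000100604, chr14:92923150-92935285, plus strand, block I), chromogranin A of dense core granules, had values of 306, 247 and 210 in parental and of 12.2, 9.88 and 16.4 in resistant libraries. The groups were far apart, with a distance of -4.59, and the neighbours *GOLGA5* and *ITPK1* had fold changes of 0.53 and 0.37 (log2). Other neuroendocrine markers on other chromosomes were also lower in resistant libraries, with *SYP* from 1192 to 1428 in parental and 251 to 360 in resistant libraries and *INSM1* from 5626 to 6729 and 1183 to 1385. *NCAM1* ranged from 3973 to 5015 and from 2835 to 3303, and *CALCA*, the last of the 5 markers listed, did not exceed 2.63 in any library. Their part in the *CHGA* result was not tested.

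*UNC79* (ENSG00000133958, chr14:93333219-93707876, plus strand, block I), an auxiliary subunit of the NALCN sodium leak channel, had 154, 143 and 113 in parental and 21.5, 13.4 and 7.44 in resistant libraries. The groups did not overlap, and the distance was -3.66. Its neighbours *BTBD7* and *PRIMA1* had fold changes of 0.69 and 1.31 (log2).

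The last pair below the block did not separate the groups. ENSG00000291313 (chr14:103334237-103335932, plus strand, block J), which lies inside *EIF5*, had 140, 190 and 163 in parental and 0, 128 and 154 in resistant libraries. Its distance of -3.01 became -0.61 without resistant library 7, the one listed at 0. ENSG00000254692 (chr14:24189157-24213473, minus strand, block B), which overlaps *TM9SF1*, *CHMP4A* and other genes, had 24.96, 0 and 21.6 in parental and 0, 0 and 14.01 in resistant libraries. Its distance of -2.16 became -3.71 without parental library 2, -1.51 without resistant library 7 and -1.50 without resistant library 8. Counting can split the reads of such nested genes.

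**Figure D3:**
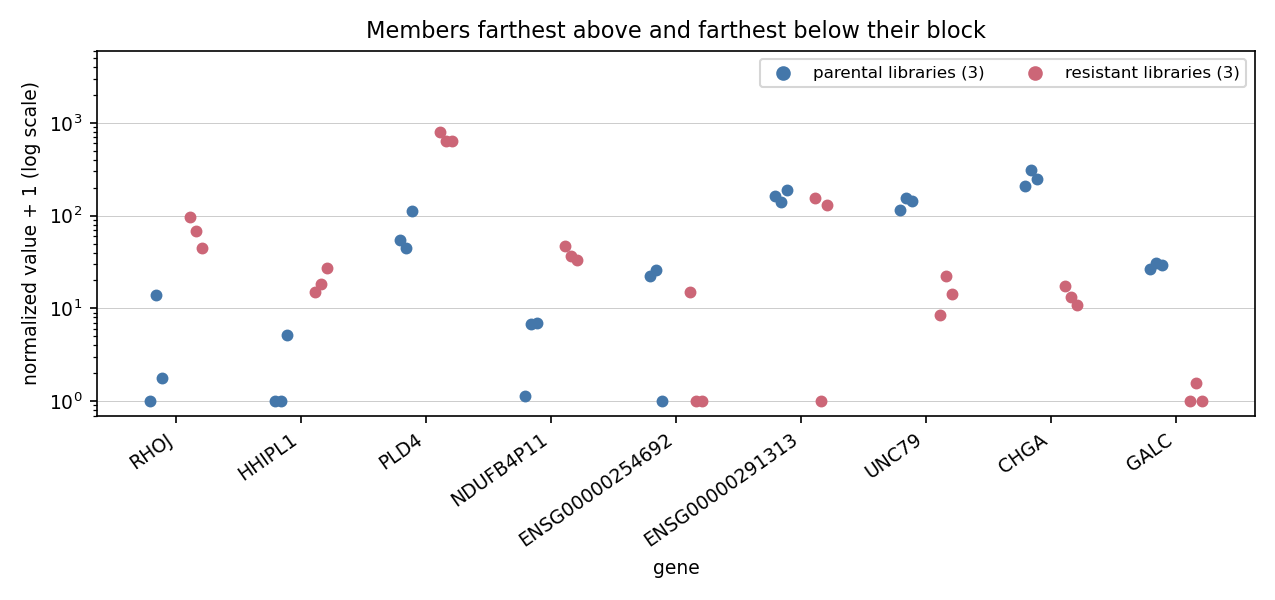
Normalized value + 1 (vertical axis, log scale) in each library for members farthest above and farthest below their block (horizontal axis). Each point is 1 library, blue for parental and red for resistant, so the groups are apart for all but ENSG00000254692 and ENSG00000291313.

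Within block B, *NDRG2*, a stress-responsive gene of the N-myc downstream regulated family, stood next farthest above, with 33.7, 74.0 and 51.3 in parental and 400, 384 and 496 in resistant libraries and a distance of 2.65. *RPPH1*, the RNA of ribonuclease P, stood below it at -1.58, with parental values from 17.5 to 20.97 and resistant values from 6.58 to 9.25. Both genes separated the groups, but *RPPH1* passed the minimum only through the parental libraries, so nothing is read from its separation. Mature *RPPH1* has no poly(A) tail.

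In block C, *AKAP6*, an anchor of protein kinase A in muscle and neurons, had 53.5, 21.9 and 33.3 in parental and 78.2, 143 and 112 in resistant libraries, a distance of 1.18. ENSG00000258938, a long noncoding RNA, lay 0.99 above the block, or 0.65 without parental library 2. *INSM2*, an insulinoma-associated zinc finger factor, lay below it at a distance of -1.26, with 42.8, 32.0 and 38.3 in parental and 17.7, 21.9 and 23.7 in resistant libraries, and *LINC00639* lay at -0.64. All 4 separated the groups, but ENSG00000258938 passed the minimum only through the resistant libraries, so nothing is read from its separation.

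On the upper side of block D stood *LINC01588* at a distance of 0.78, which was 0.52 without parental library 3, and *KLHL28* at 0.33, which was 0.55 without parental library 1 and 0.20 without parental library 2. On its lower side stood *RN7SL1* and *RN7SL2*, both RNAs of the signal recognition particle, at -1.56 and -1.41. *RN7SL1* had 272, 221 and 262 in parental and 108, 114 and 93.8 in resistant libraries, and *RN7SL2* had 570, 445 and 605 against 236, 281 and 237. The 2 are near-identical copies and their reads cannot be assigned with confidence.

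In block E, *PYGL*, the liver form of glycogen phosphorylase, had 102, 167 and 110 in parental and 400, 416 and 389 in resistant libraries and lay 1.34 above the block, and the long noncoding RNA ENSG00000259868 lay 1.27 above it. The next expressed gene after *PYGL*, *TRIM9*, a ubiquitin ligase of neurons, lay 0.94 below the block, with 399, 484 and 352 in parental and 214, 375 and 253 in resistant libraries, which overlap. *LRRC9* ran from 7.40 to 53.4 in parental and from 4.69 to 45.8 in resistant libraries, so its distance of -0.67 is within the spread between libraries, and it turned to 0.07 without parental library 2 and to 0.095 without resistant library 7, while it was -1.34 without parental library 1 and -1.44 without resistant library 9.

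In block F, *TMEM229B*, which overlaps *PLEKHH1*, had 35.02, 51.7 and 48.6 in parental and 272, 313 and 323 in resistant libraries, a distance of 2.36. *GPX2*, the gastrointestinal glutathione peroxidase, had 55.1, 43.02 and 29.8 in parental and 21.5, 14.9 and 18.5 in resistant libraries, a distance of -1.52 without overlap. The read-through gene *CHURC1-FNTB*, which spans *GPX2*, lay at -1.79, but its values of 4.29 to 31.3 and 0 to 21.8 overlap, and the distance was -0.66 without resistant library 8 and -2.89 without resistant library 9.

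In block G, *VRTN*, a factor in vertebra number, had 6.24, 7.77 and 13.8 in parental and 76.2, 47.9 and 57.2 in resistant libraries, a distance of 2.26. *FLVCR2*, a choline transporter, had 17.9, 46.7 and 25.2 in parental and 6.28, 8.55 and 13.6 in resistant libraries, a distance of -1.88. Both separated the groups, but *VRTN* passed the minimum only through the resistant libraries and *FLVCR2* only through the parental ones. A difference was thus built in by selection, and nothing is read from their separation. The long noncoding RNA ENSG00000251393 (distance 1.302) and *ZDHHC22*, a palmitoyltransferase (distance -1.50), overlapped between the groups. Their distances were 0.66 without parental library 1 and -0.88 without resistant library 7.

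In block H, *GTF2A1-AS1* lay 0.80 and *PTPN21* 0.24 above (0.12 without parental library 1 and 0.42 without parental library 3), and the endocytic adaptor *STON2* lay below it at -0.57. In block I, *BDKRB2*, the bradykinin B2 receptor, had 7.31, 22.4 and 11.1 in parental and 47.9, 68.8 and 66.7 in resistant libraries, a distance of 1.84. In block J, *CRIP2*, a LIM domain protein gene, had 70.4, 51.9 and 28.3 in parental and 13.4, 20.6 and 15.01 in resistant libraries, a distance of -1.90. The member after it, *CRIP1*, of the same family, had a log2 fold change of 1.38, with 145 to 359 in parental and 581 to 706 in resistant libraries.

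Runs of neighbouring members that were all beyond 1 were picked out after the values were seen. The longest held *PLEK2*, *TMEM229B* and *PLEKHH1* in block F, with distances of 1.70, 2.36 and 1.15. Of these, *TMEM229B* and *PLEKHH1* overlap each other. *PLEK2*, a pleckstrin, had 47.0, 98.9 and 64.8 in parental and 270, 264 and 325 in resistant libraries. *NDRG2* and *ARHGEF40* (2.65 and 1.03), *PLD4* and *AHNAK2*, *CHURC1-FNTB* and *GPX2*, and ENSG00000259132 and *AJUBA* (1.88 and 1.58) were overlapping neighbours.

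The 20 members called lower were spread over 8 of the 10 blocks and were of varied size. They were *RPPH1*, *LINC00641*, *HNRNPC*, *THTPA*, *EMC9* and *REC8* in block B, *RN7SL1* and *RN7SL2* in block D, *TRIM9* in block E, *GPX2* in block F and *DNAL1*, *FLVCR2* and *IRF2BPL* in block G. *GALC* in block H, *CHGA* and *UNC79* in block I and *CKB*, *TMEM179*, *NUDT14* and *CRIP2* in block J completed them. Log2 fold changes ran from -4.63 for *GALC* to -0.19 for *CKB*. The call of *TRIM9* (limma adjusted p = 0.045) was lost in 8 alternatives, with an adjusted p of up to 0.148. *REC8*, the meiotic cohesin subunit, was among the best expressed, with 6095, 6344 and 5789 in parental and 5144, 5052 and 5314 in resistant libraries (log2 fold change -0.23, SE 0.06).

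The same members were then grouped by function, in 13 lists of 215 chromosome 14 genes written from textbook knowledge. Of these, 169 passed the minimum mean, with 94 (55.6%) called higher and 6 lower by limma and a median log2 fold change of 0.33. Over all members 53.1% were called higher with a median of 0.38, and over all genes tested 17.8% were called higher. The counts of single lists stand against the share of all members, and no list was tested against the others. A gene that passed the minimum only through the group where it is high had to differ, so these counts describe the genes that passed.

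**Figure D4:**
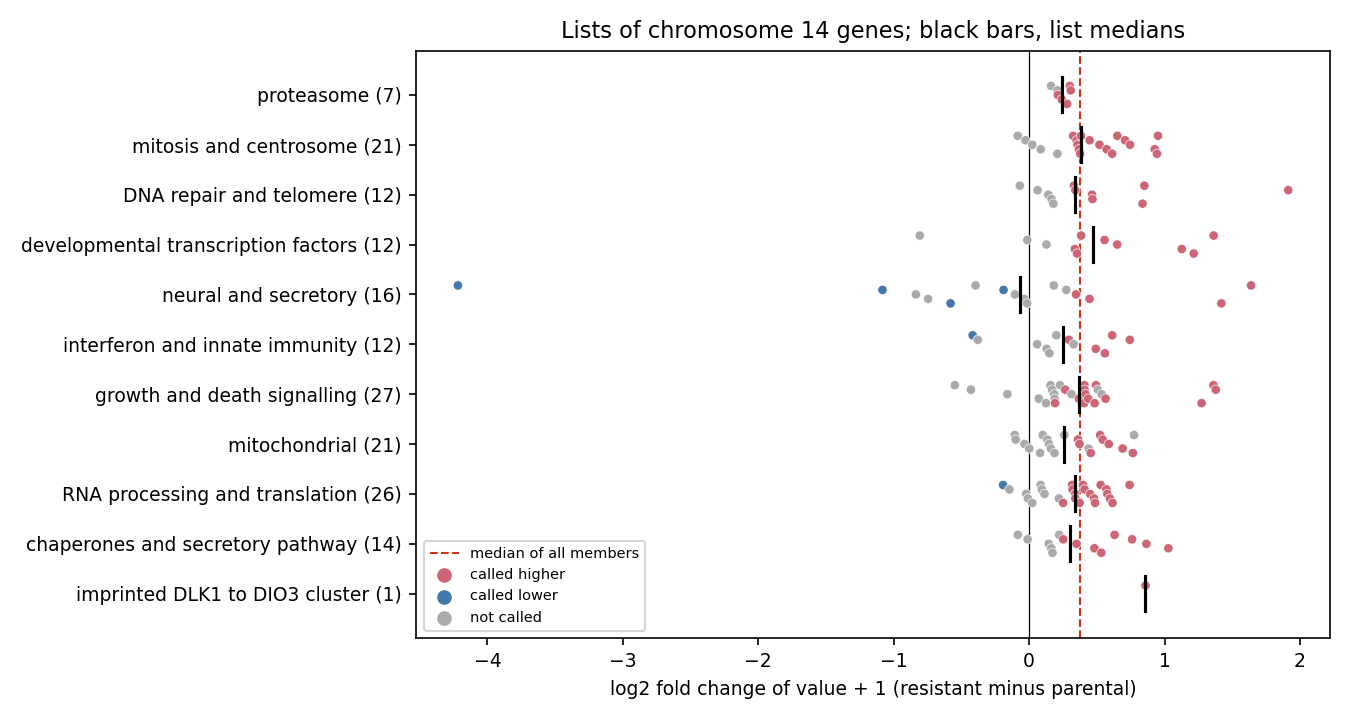
Log2 fold change of value + 1 (resistant minus parental, horizontal axis) of the tested members of each functional list (rows, with the number tested). Each point is 1 gene, coloured by its limma call, with 1 gene not drawn, black bars are list medians and the dashed line is the median of all 555 members. The list of neural and secretory genes, with a median of -0.07, is the row whose median lies below 0.

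Genes of mitosis and the centrosome, the process in which PLK1 acts, had 16 of 21 members (76.2%, against 53.1% of all members) called higher and 0 lower. The median was 0.38, and over all members it was also 0.38. *DYNC1H1*, the motor chain of cytoplasmic dynein, rose by 0.71 on the log2 scale, from 17382 ± 956 to 28566 ± 3986 (SD, n = 3; limma adjusted p = 0.00032). *PPP2R5C*, a regulatory subunit of protein phosphatase 2A, rose from 3364 ± 77.3 to 5007 ± 316 (SD, n = 3; limma adjusted p = 0.000113). *KLC1*, a kinesin light chain, did not pass the test, with 4072 ± 232 and 4137 ± 189 (SD, n = 3; limma adjusted p = 0.817).

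Genes of DNA repair and telomeres had 7 of 12 members called higher and 0 lower, with a median of 0.34. *WDHD1*, a replication fork protein, rose from 1976 ± 39.0 to 2733 ± 57.8 (SD, n = 3; limma adjusted p = 0.000282), and *MLH3*, a mismatch repair protein, from 819 ± 124 to 1456 ± 93.6 (SD, n = 3; limma adjusted p = 0.000267). *TEP1*, a telomerase-associated protein chosen after its value was seen as the largest of the list, had 209, 287 and 203 in parental and 805, 840 and 969 in resistant libraries. *APEX1*, the main abasic site nuclease, was at 7354 ± 559 and 7666 ± 278 (SD, n = 3; limma adjusted p = 0.511).

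RNA processing and translation had 17 of 26 members called higher and 1 lower, with a median of 0.34. *SUPT16H*, a subunit of the FACT histone chaperone, rose from 12249 ± 661 to 18192 ± 975 (SD, n = 3; limma adjusted p = 0.000103), and *PAPOLA*, the poly(A) polymerase, from 7682 ± 269 to 10117 ± 377 (SD, n = 3; limma adjusted p = 0.000522). *HNRNPC*, which packages nascent RNA, went from 19043 ± 926 to 16657 ± 446 (SD, n = 3; limma adjusted p = 0.0264), a call that was lost in 8 alternatives, 5 of them the removal of any 1 library other than parental library 2. *EIF5* did not pass the test (limma adjusted p = 0.47).

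The proteasome, which degrades ubiquitinated proteins, has subunit genes on many chromosomes. Of 7 tested proteasome genes on chromosome 14, 5 were called higher and 0 lower, with a median log2 fold change of 0.24. Of 39 proteasome genes on other chromosomes 5 were called higher and 15 lower, with a median of -0.14. Over all members of chromosome 14 the median was 0.38 and 53.1% were called higher. Over all tested genes of other chromosomes 16.6% were called higher and 20.4% lower. *PSMB5*, which carries the chymotrypsin-like site, had 3100, 2735 and 2826 in parental and 3519, 3139 and 3370 in resistant libraries. The count of 5 rests on changes close to the threshold, and it was 3 with no filter, 2 without parental library 2 or resistant library 9 and 1 without parental library 3, without resistant library 7 or without the intensity trend. Chromosome 14 was chosen with its genes known to be higher, so a difference between the 2 sets of proteasome genes was built in. It was not tested.

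Developmental transcription factors had 9 of 12 tested members called higher and 0 lower, with a median of 0.47. *FOXA1*, a pioneer factor of endoderm, rose from 4137 ± 991 to 6391 ± 512 and *FOXN3* from 3265 ± 43.4 to 4811 ± 330 (SD, n = 3; limma adjusted p = 0.00453 and 0.000143). *NKX2-1*, close to the minimum with a mean of 10.1, had 4.33, 6.59 and 4.77 in parental and 15.9, 17.2 and 11.9 in resistant libraries. It passed the minimum only through the resistant libraries, so a difference between the groups was built in by its selection. Its call (limma adjusted p = 0.0353) was lost in 4 alternatives, among them the removal of parental library 1 or 3, and in 4 others, among them the removal of any resistant library, its mean fell under the minimum and it was not tested. Another 6 factors of the list, among them *OTX2* and *SIX6*, were under the minimum.

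Of 16 tested neural and secretory genes, 4 were called higher, 4 lower and 8 were not called, with a median of -0.07, and the difference from other members was not tested. The count of 4 lower was 2 with no filter, with upper quartile scaling, without the intensity trend, without parental library 2 and without resistant library 9. *TMEM179* had 373, 484 and 409 in parental and 203, 226 and 167 in resistant libraries (limma adjusted p = 0.000427), and *CHGA* is described above. *SSTR1*, the somatostatin receptor 1, went the other way and, like *TMEM179*, was picked after the values were seen, with 75.8, 72.8 and 78.7 in parental and 216, 203 and 194 in resistant libraries (limma adjusted p = 0.000104). *CKB*, brain creatine kinase and the second highest member, went from 34409 ± 1856 to 30163 ± 688 (SD, n = 3; limma adjusted p = 0.0317), a call lost in 9 alternatives.

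Growth and death signalling had 14 of 27 members called higher and 0 lower, with a median of 0.37. *HIF1A*, the hypoxia factor subunit, rose from 4363 ± 363 to 5888 ± 137 and *AKT1*, the survival kinase, from 4264 ± 223 to 5642 ± 75.6 (SD, n = 3; limma adjusted p = 0.000972 and 0.000599). *MTA1*, a chromatin corepressor subunit, was called with a log2 fold change of 0.19, a call lost in 7 alternatives, and the Notch ligand *JAG2* was not called (limma adjusted p = 0.172).

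Chaperones and the secretory pathway had 8 of 14 members called higher and 0 lower, with a median of 0.30. *HSP90AA1*, the stress-inducible heat shock protein 90, had 67111, 53177 and 56734 in parental and 79058, 73820 and 71823 in resistant libraries (limma adjusted p = 0.00979), a call lost without the intensity trend (adjusted p = 0.06). *SEC23A*, a coat protein of vesicles leaving the endoplasmic reticulum, had a log2 fold change of 0.76. Mitochondrial genes had 8 of 21 called higher, 0 lower and 13 not called, with a median of 0.26 and log2 fold changes from -0.11 to 0.77. *DLST*, an enzyme of the citric acid cycle, was called at 0.37, and *GLRX5*, an iron-sulfur cluster protein, was not called at -0.10.

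Interferon and innate immunity genes had 5 of 12 tested members called higher and 1 lower, with a median of 0.25. *TNFAIP2*, induced by tumour necrosis factor, rose from 9871 ± 479 to 13876 ± 490 (SD, n = 3; limma adjusted p = 0.000167), and *IRF2BPL* fell from 5095 ± 412 to 3810 ± 171 (SD, n = 3; limma adjusted p = 0.00152). *TRAF3* was not called, and the count of 5 higher was 3 without parental library 1, parental library 3, resistant library 9 or the intensity trend.

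Few genes of the arm's tandem clusters were expressed. Of the 8 genes listed for the imprinted *DLK1* to *DIO3* cluster only *BEGAIN*, at its edge, passed the minimum, with 44.8, 67.0 and 56.5 in parental and 95.5, 138 and 77.6 in resistant libraries (limma adjusted p = 0.0289), a call lost in 6 alternatives. None of the 9 serpin A genes and none of the 13 ribonuclease A genes passed it.

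At the minimum mean of 10, the members just inside were ENSG00000254692 (mean 10.1) and *NKX2-1* (mean 10.1), and the genes just outside were *JDP2-AS1* (mean 9.68) and *SLC8A3*, a sodium-calcium exchanger (mean 9.93). Of the 1786 rows under the minimum, 1378 were listed at 0 in all libraries. Among the 555 members, 541 had every library above the value of 3 reads.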

How the data were processed

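Total RNA was measured by RNA-seq in 3 parental and 3 resistant H526 libraries. Per the labels and the study's methods, the authors trimmed reads with Trimmomatic 0.38, used RSEM 1.3.1 and STAR on GRCh38 with Gencode 43, and normalized gene counts with DESeq2 1.30.0. What they deposited is that normalized signal for each gene in each library, never negative and unfiltered, with replicates kept apart. It is not counts. Only 45.0% to 59.8% of the low values per library came within 0.05 of a whole number of reads, so reads per gene could not be recovered, and the study's own test, which needs counts, was replaced.

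Of 62757 rows, 47 second copies of pseudoautosomal genes were left out, and 62639 of 62710 matched Gencode 44, which gave symbols, gene types and GRCh38 positions. Genes with a mean of at least 10 were fitted as log2(value + 1) with limma 3.58.1 (R 4.3.3, lmFit and eBayes with an intensity trend) on all 6 libraries, with Benjamini-Hochberg adjustment at 0.05. Fold changes on this scale understate the change of low genes. An exact two-sided permutation test of 3 libraries and 3 cannot go below p = 0.10. Tables and plots were made with pandas 2.3.3, numpy 2.4.6 and matplotlib 3.10.9 in Python 3.11.15.

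Named genes were, per block with at least 10 members, the 2 farthest from the block median on each side, the 5 farthest on each side of the chromosome, up to 4 list members with the highest mean, 2 genes on each side of the minimum, and *GPR132*. The genes called lower, *TEP1*, *SSTR1*, *TMEM179*, *LINC02301*, *CRIP1* and the members of runs were named after their values were seen. A gene that this rule names and a subtype marker are not reported here by name or value, but the gene is in all counts and medians. The members and the 13 lists were chosen with earlier results of these data known. A named gene that passed the minimum only through the group where it is high had to differ, so its separation is a description only. Tested on simulated data of 16347 genes for this comparison, 20 of 50 genes changed 1.5-fold and 46 of 50 changed 2-fold were called. Far fewer genes were changed in the simulation than were called in the data, and its dispersion was the same for all genes. These counts therefore need not hold for the data. Also tried were a minimum mean of 50 or none, pseudocounts of 0.1 and 10, upper quartile scaling, quantile normalization, each library left out, no trend, blocks shifted by 5 Mb, protein-coding genes only, means in place of medians, and distances from 51 neighbouring members.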

Additional observations from a re-analysis of the deposited data

Results flagged for a closer look

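Groups of 3 libraries are too small for a search for outlying libraries. Among the chromosome 14 rows under the minimum mean, which entered no fit but the one without a filter, 2 were over the value of 3 reads in every library of one group and listed at 0 in every library of the other. *GPR132* (ENSG00000183484, chr14:105049395-105065445), a G protein-coupled receptor, had 19.1, 4.38 and 12.2 in resistant libraries 7, 8 and 9, a mean of 11.9 ± 7.38 (SD, n = 3). It was listed at 0 in all 3 parental libraries. *LINC02301* (ENSG00000258743, chr14:82642600-82746664), a long noncoding RNA, had 15.8, 24.0 and 8.74 in parental libraries 1, 2 and 3, a mean of 16.2 ± 7.62 (SD, n = 3), and 0 in each of the resistant libraries.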

How the results depend on the processing

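No paired analysis was possible because libraries 1 to 3 are parental and 7 to 9 resistant, with no number in common, and which extractions of the 2 groups belong together is not given in the sources used here. Every alternative named under the processing could be run. The chromosome median, 0.38 as reported, was above 0 in each alternative that recomputes it, with 0.36 at a pseudocount of 10, 0.35 with no filter, 0.43 with upper quartile scaling (which moved the median of all genes to 0.05), 0.39 with quantile normalization, 0.36 for protein-coding genes and 0.43 for the mean. Upper quartile scaling gave block medians of 0.45 (B), 0.43 (F), 0.42 (G), 0.42 (H) and 0.42 (I). Quantile normalization gave 0.20 (D) and 0.41 (F), no filter 0.38 (C), 0.32 (H) and 0.34 (J), a minimum mean of 50 gave 0.15 (D) and 0.33 (J), and protein-coding genes 0.26 (J). Means in place of medians were 0.53 (B), 0.54 (C), 0.19 (D), 0.57 (F), 0.050 (H) and 0.47 (J). Leaving out each library gave 0.37 to 0.39 for the chromosome, 0.15 to 0.37 for block D, 0.37 to 0.43 for F, 0.32 to 0.38 for G and 0.31 to 0.44 for J. With blocks shifted by 5 Mb the medians ran from 0.23 to 0.53. In members overlapping no other gene, an alternative chosen after seeing the data, the chromosome median was 0.38. Members called ranged from 246 to 318 higher and from 14 to 20 lower over the alternatives. List members called lower were 3, against 6, with upper quartile scaling, and 3 to 5 with a library left out, the 3 being without resistant library 9. The distance of *LRRC9* of -0.67 ran from -1.44 to 0.095 with a library left out, and changed sign at 0.072 without parental library 2 and 0.095 without resistant library 7. Pseudocounts moved low genes most, with *GALC* from -7.58 to -2.24 and *RHOJ* from 2.12 to 5.60. Causes were not tested. *HHIPL1*, *ZDHHC22*, *CHURC1-FNTB*, ENSG00000251393 and ENSG00000254692 fell under the minimum mean without some libraries. Depth limits statements on genes near the value of 3 reads.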
